A study of Medicago sativa with 3 samples.

Results

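Beta-amylases, vegetative storage proteins and acid phosphatases are described here in alfalfa (Medicago sativa ssp. falcata) under sheep grazing, as a set of 59 assembled transcripts among the 95646 of the deposited table. A transcript was taken where its closest protein and its closest nucleotide sequence both named one of the legume genera Medicago, Glycine, Lotus, Pisum, Cicer or Trifolium, and where the protein match carried the words beta-amylase, vegetative storage, stem storage or acid phosphatase. Legume matches of both kinds were found for 52669 transcripts, called legume-matched below. A further 3 transcripts carried the words without meeting the legume condition and are not members. The members comprise 22 beta-amylases, 6 vegetative storage proteins, 27 purple acid phosphatases and 4 other acid phosphatases, and 0 matched the words stem storage. The rule reads annotation and uses no measured level, although it was proposed with earlier results of these data known.

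Perennial forage plants regrow after defoliation from reserves held in the taproot and crown. Starch is broken down there in part by beta-amylase, which releases maltose from the ends of glucan chains, and nitrogen is drawn from vegetative storage proteins, which accumulate in the vacuole and are degraded when shoots regrow. In alfalfa taproots a beta-amylase itself accumulates to levels at which it is counted among the storage proteins, and in soybean the classical vegetative storage proteins are relatives of acid phosphatases. Acid phosphatases release phosphate from organic esters, and the purple acid phosphatases, which carry a pair of metal ions in the active site, include vacuolar and secreted enzymes that many plants produce under phosphate shortage.

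The study compared whole-plant RNA bulks of 3 kinds, each sequenced as 1 library. The tolerant population MF200401 was sampled after grazing (tolerant grazed) and from a fenced block (tolerant ungrazed), and the intolerant population MF200402 was sampled after grazing only (intolerant grazed). Both populations were clonal propagules of plants selected from 1 cultivar for good or poor recovery. Leaf, stem and root RNA was pooled in equal amounts within each bulk, over the plants of a population dug a week after the sheep were removed, and the ungrazed plants were cut back to a like height at that removal. The grazed bulks of both populations came from the same field block and the ungrazed bulk from another, so an effect of grazing and one of the block cannot be told apart. Ungrazed intolerant plants were not sampled, so the response of that population to grazing and its standing level cannot be told apart either. The label taproot does not apply to the samples themselves, since roots were 1 of 3 tissues in every bulk. Fewer cells of a tissue and less RNA per cell cannot be told apart in such bulks.

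The libraries held between 22.3 M and 22.8 M uniquely aligned fragments (M, mega), and the members took 0.141%, 0.131% and 0.134% of them in the order tolerant ungrazed, tolerant grazed and intolerant grazed, the order used for every run of 3 values below. Levels are given as FPKM, fragment counts scaled to a transcript length of 1 kilobase and to the library total in mega-fragments. The scaling uses the full length, and the paper's size-selected cDNA fragments were about as long as the shorter contigs. Levels of short and long transcripts are therefore only roughly comparable. Leaf markers moved between the libraries. The summed FPKM of 22 chlorophyll a/b-binding and Rubisco small-subunit transcripts was 10037 in the tolerant ungrazed, 10880 in the tolerant grazed and 25049 in the intolerant grazed library, with 0 of the 22 at zero in any library. The 67 laccase and fasciclin-like arabinogalactan transcripts and other stem markers summed to 743, 869 and 888, with 0, 1 and 3 of them at zero. Of the root markers only 4 high-affinity nitrate transporter transcripts were found, with sums of 13.96, 4.40 and 3.46, and the words leghemoglobin and Casparian strip matched 0 legume-matched transcripts. The part of tissue make-up in the results below was not tested.

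Ratios are log2 ratios of FPKM with 0.01 in place of 0, each with an exact Clopper-Pearson 95% interval on the fragments, and a transcript is said to pass the threshold where this ratio is 1 or more in either direction, a 2-fold difference. With 1 library a group there is no replicate check, replicates could not be tested against each other, and the intervals cover counting error only. The median log2 ratio of the 48423 transcripts that reached an FPKM of 1 in all 3 libraries was 0.09 for tolerant grazed against tolerant ungrazed and 0.24 for intolerant grazed against tolerant grazed, so small ratios of the second comparison should be read against that shift. In the first comparison 10 of the 59 members (16.9%) passed the threshold, 8 of them higher and 2 lower after grazing, where 41.3% of all transcripts and 24.5% of legume-matched transcripts passed. In the second comparison 19 members (32.2%) passed, 14 of them higher and 5 lower in intolerant plants, where 49.1% of all transcripts and 35.7% of legume-matched transcripts passed. The members' share was thus below both backgrounds in the first comparison and close to the legume-matched one in the second. By direction, 13.6% of members were higher and 3.39% lower in the first comparison, against 15.7% and 8.78% of legume-matched and 16.9% and 24.4% of all transcripts. In the second comparison 23.7% were higher and 8.47% lower, against 22.3% and 13.4% of legume-matched and 25.5% and 23.6% of all transcripts. The median log2 ratio of the members was 0.24 and 0.36 in the first and second comparison, that of legume-matched transcripts 0.12 and 0.28 and that of all transcripts −0.02 and 0.19.

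At least 20 fragments in 1 library were counted for 52 of the 59 members, and the other 7 stayed under 20 fragments in every library. The calls of the first comparison rested largely on thinly covered transcripts. Of its 10 members past the threshold, 4 had at least 20 fragments in 1 of the tolerant libraries, all 4 of them higher after grazing, and 1 had an interval wholly beyond the threshold. These 4 stand among 46 members with such coverage, where 18.1% of legume-matched transcripts passed (11.4% higher and 6.68% lower) and 29.2% of all transcripts did (12.1% higher and 17.1% lower). In the second comparison 18 of 19 had such coverage, 13 higher and 5 lower among 52 members, where 31% of legume-matched transcripts passed (20% higher and 11% lower) and 38.9% of all transcripts did (23.5% higher and 15.4% lower). For 15 of the 19 the whole interval lay beyond the threshold, 12 of them higher. The highest level of the 3 libraries was in the intolerant grazed library for 34 members, in the tolerant grazed library for 14 and in the tolerant ungrazed library for 11. The same shares were not computed over all transcripts, so these counts are not read as a trait of the set. Between the grazed libraries 38 members had a ratio above 0 and 21 below, against 33305 and 19283 legume-matched transcripts.

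**Figure D1:**
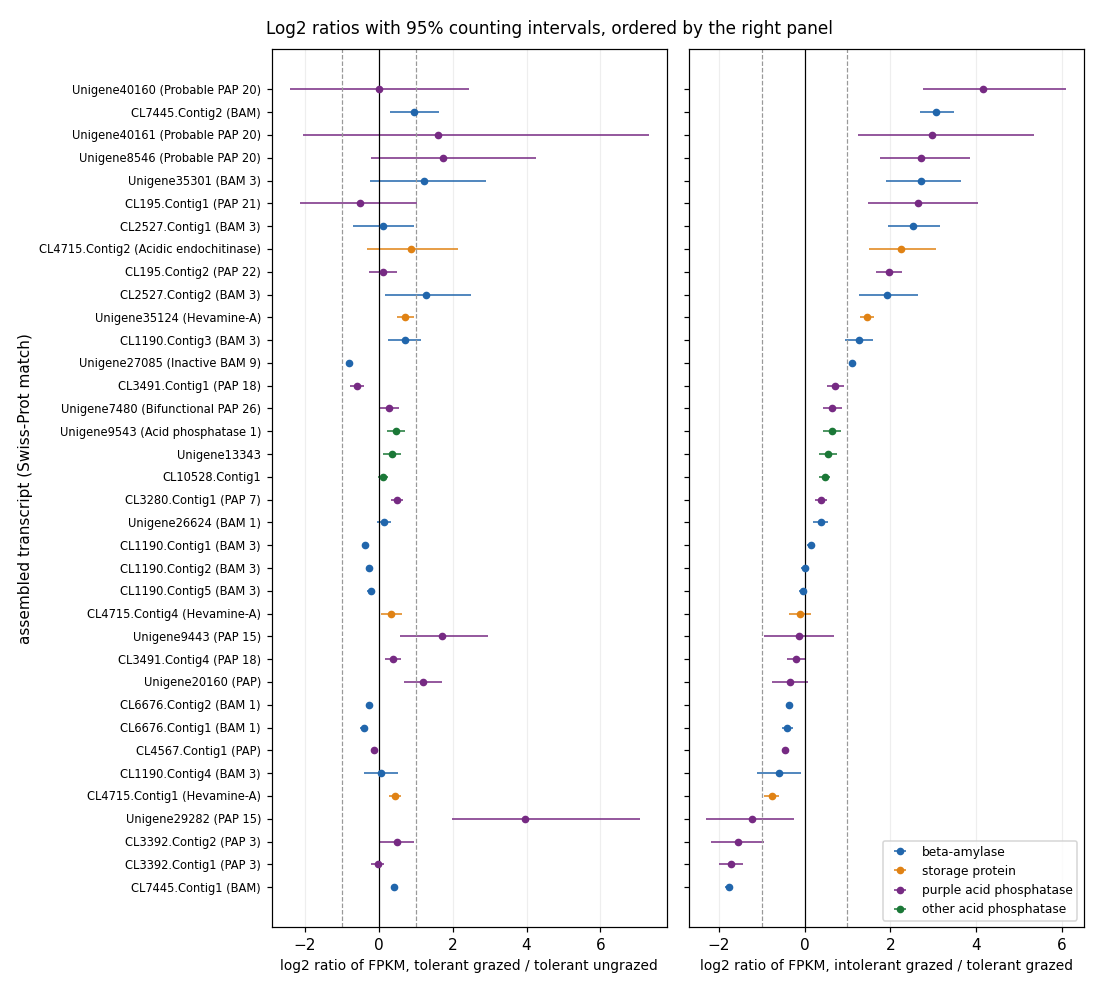
Log2 ratios of FPKM (horizontal axes) of the 36 named transcripts with fragments in every library, with tolerant grazed against tolerant ungrazed on the left and intolerant grazed against tolerant grazed on the right. Points are ratios, bars are exact 95% counting intervals, dashed lines mark the threshold of 1, and rows run from the highest right-hand ratio, 4.17, down to the lowest, −1.77.

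Beta-amylases were the most abundant of the set. Their 22 transcripts summed to an FPKM of 490.2 in the tolerant ungrazed, 432 in the tolerant grazed and 452 in the intolerant grazed library. The sum was lower by a log2 ratio of −0.18 (interval −0.21 to −0.15) in tolerant grazed against ungrazed plants, and the direction of its small difference between the grazed libraries, 0.07 (0.03 to 0.10), turned with the scaling, to −0.17 after rescaling by the median ratio. The total stayed nearly level, and single members differed in both directions. Of the 22, 9.09% passed the threshold in the first comparison and 31.8% in the second, against 24.5% and 35.7% of legume-matched transcripts. Between the grazed libraries 6 beta-amylases passed the threshold upward and 1 downward, and between the tolerant libraries 2 passed upward and 0 downward. These are 27.3% and 4.55% of the beta-amylases between the grazed libraries, against 22.3% and 13.4% of legume-matched and 25.5% and 23.6% of all transcripts. Between the tolerant libraries they are 9.09% and 0%, against 15.7% and 8.78% of legume-matched and 16.9% and 24.4% of all transcripts. The median log2 ratio of the 22 was 0.07 in the first comparison and 0.47 in the second, where the medians of legume-matched transcripts were 0.12 and 0.28.

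**Figure D2:**
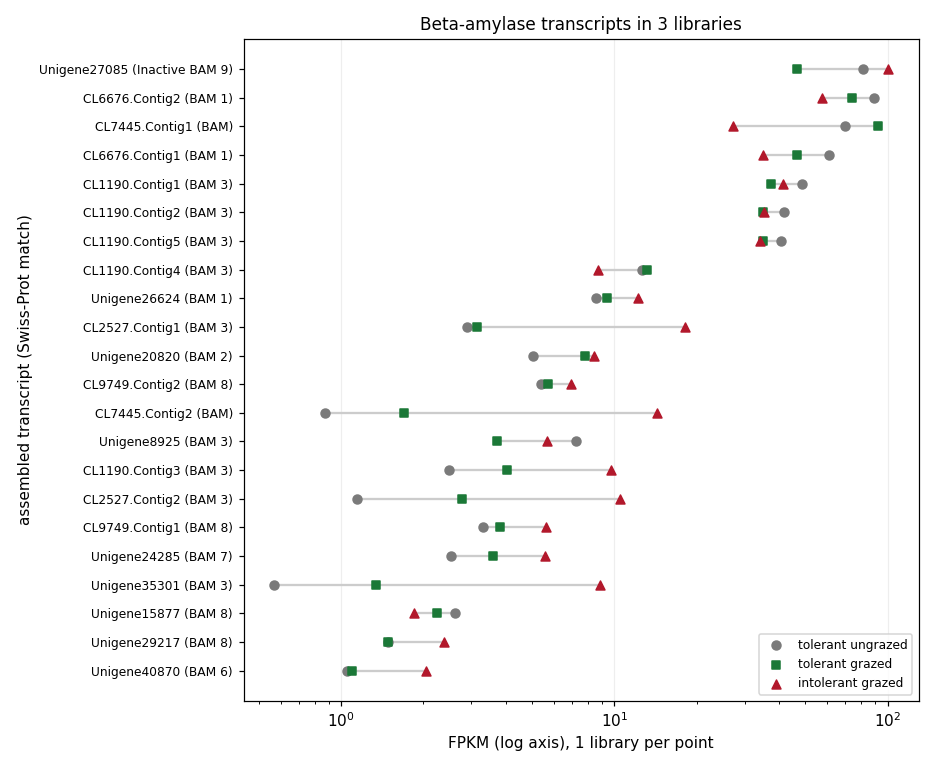
FPKM (horizontal, log axis) of the 22 beta-amylase transcripts in the tolerant ungrazed (grey circle), tolerant grazed (green square) and intolerant grazed (red triangle) library, 1 library per point, ordered by mean level. Of the 7 most abundant transcripts only Unigene27085 and CL7445.Contig1 spread by more than 2-fold, while CL7445.Contig2, CL2527.Contig1, CL2527.Contig2 and Unigene35301 lay far to the right in the intolerant grazed library, at 14.4, 18.1, 10.51 and 8.85.

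The transcript matching the alfalfa beta-amylase gene BA1, nearest in Swiss-Prot to a beta-amylase with no plastid in its name, was highest in grazed tolerant plants and lowest in grazed intolerant plants. CL7445.Contig1_All measured 69.8, 92.2 and 27.1 FPKM (3139, 4110 and 1189 fragments). Its log2 ratio was 0.40 (0.33 to 0.47) for tolerant grazed against ungrazed and −1.77 (−1.86 to −1.67) for intolerant against tolerant grazed, the lowest ratio among the beta-amylases. It was the only beta-amylase past the threshold downward.

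A second contig of the same assembly cluster went the other way. CL7445.Contig2_All, whose best nucleotide match is the Medicago truncatula beta-amylase MTR_2g089030, measured 0.874, 1.71 and 14.4 FPKM (31, 60 and 497 fragments). Between the grazed libraries its ratio was 3.07 (2.68 to 3.48), and between the tolerant libraries 0.96 (0.32 to 1.64), just inside the threshold, which it passed with TPM in place of FPKM, at 1.07, and without cluster CL4238 described below, at 1.02. Contig1 thus supplied 98.8% of the cluster's FPKM in the tolerant ungrazed and 98.2% in the tolerant grazed library, but 65.4% in the intolerant grazed library. Summed over both contigs the cluster measured 70.7, 93.9 and 41.4 FPKM, giving log2 ratios of 0.41 (0.34 to 0.48) and −1.18 (−1.26 to −1.10). Contigs of 1 cluster share sequence, fragments were counted only where they aligned uniquely, and the populations may carry unlike alleles, so a change of level and a change of sequence cannot be told apart for a single contig. Unigene40870_All, also matched to MTR_2g089030 and nearest to BAM6 of Arabidopsis in Swiss-Prot, stayed low at 1.05, 1.09 and 2.05.

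Chloroplast BAM1 of Arabidopsis acts on starch in guard cells and under stress. Its most abundant matches were highest in the tolerant ungrazed and lowest in the intolerant grazed library. CL6676.Contig2_All measured 89.1, 74.1 and 57.6 FPKM, giving log2 ratios of −0.27 (−0.33 to −0.21) and −0.36 (−0.43 to −0.29). CL6676.Contig1_All, a shorter contig of the same cluster, had 60.9, 46.5 and 35.1, giving log2 ratios of −0.39 (−0.50 to −0.28) and −0.40 (−0.53 to −0.28). Both contigs were thus lower at each step, with every interval under 0 and no ratio past the threshold. Another transcript named BAM1 by Swiss-Prot, Unigene26624_All, ran in the other order at 8.55, 9.44 and 12.2, and its protein match names BAM3.

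BAM3 is the principal beta-amylase of nightly starch breakdown in Arabidopsis leaves and responds to cold. Of the 9 transcripts matched to it, the 3 abundant ones hardly differed between the grazed libraries. CL1190.Contig1_All measured 48.6, 37.5 and 41.4 FPKM, CL1190.Contig2_All had 42.0, 35.1 and 35.4, and CL1190.Contig5_All had 40.7, 34.9 and 34.2. Between the tolerant libraries their log2 ratios were −0.37 (−0.46 to −0.29), −0.26 (−0.35 to −0.16) and −0.22 (−0.32 to −0.13). Between the grazed libraries they were 0.14 (0.05 to 0.23), 0.01 (−0.08 to 0.11) and −0.03 (−0.12 to 0.07), and the last 2 intervals held 0. All 3 share 1 best nucleotide match in soybean and 1 cluster, so they are not independent of each other.

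Of a second set of BAM3-type transcripts, 4 of 6 were scarce in both tolerant libraries and higher in the intolerant grazed library. These match MTR_5g013620, MTR_5g013640 or a clone, all on chromosome 5 of Medicago truncatula where a chromosome is given, and the 3 given next are fragments of 384 to 461 bases. CL2527.Contig1_All measured 2.90, 3.15 and 18.1 FPKM (26, 28 and 159 fragments). CL2527.Contig2_All had 1.14, 2.76 and 10.51, and Unigene35301_All had 0.570, 1.34 and 8.85. In each of the 3 the intolerant grazed value was the highest by a wide margin.

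Their log2 ratios between the grazed libraries were 2.53 (1.94 to 3.16), 1.93 (1.27 to 2.64) and 2.72 (1.90 to 3.65), and every interval lay beyond the threshold. The longer CL1190.Contig3_All, matched to MTR_5g013620, had 2.49, 4.05 and 9.75, with a ratio of 1.27 (0.95 to 1.60) between the grazed libraries and 0.70 (0.26 to 1.15) between the tolerant ones. The tolerant comparison gave 1.27 (0.16 to 2.50) for CL2527.Contig2_All and 1.23 (−0.24 to 2.90) for Unigene35301_All, from 10 and 24 and from 6 and 14 fragments, so the second of these upward calls had an interval that held 0. Not every transcript of these loci was higher. CL1190.Contig4_All, matched to MTR_5g013640, had 12.6, 13.2 and 8.72, with a ratio of −0.60 (−1.11 to −0.09) between the grazed libraries, and Unigene8925_All had 7.22, 3.71 and 5.68. The 6 transcripts of these matches, grouped after their values were seen, summed to 26.9, 28.2 and 61.7. The leaf marker sum was also higher in the intolerant grazed library, at 25049 against 10880 in the tolerant grazed one, and its part in these differences was not tested. As for CL7445, a change of level and a change of sequence between the populations cannot be told apart for a single one of these contigs.

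Over all 9 transcripts matched to BAM3 the summed FPKM was 158, 136 and 173, giving log2 ratios of −0.22 (−0.29 to −0.16) and 0.35 (0.28 to 0.42). The 3 matched to BAM1 summed to 159, 130 and 105, with −0.29 (−0.34 to −0.23) and −0.31 (−0.37 to −0.25). In these sums BAM3-type transcripts exceeded BAM1-type ones most clearly in the intolerant grazed library, while both sums were nearly equal in the tolerant ungrazed library. A sum of FPKM weighs a short contig as heavily as a long one, and several contigs may be pieces of 1 gene. The BAM3 sum includes the 3 fragments of 384 to 461 bases given above. In fragments the BAM3 matches had 6805, 5607 and 6112 and the BAM1 matches 6944, 5736 and 4604.

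The single beta-amylase transcript with the highest mean level was one named inactive. Sums over contigs with a shared soybean match were higher on average. The 2 contigs of CL6676 summed to 150, 121 and 92.8 FPKM, and the 3 abundant contigs of CL1190 to 131, 107 and 111. Unigene27085_All matches BAM9, which in Arabidopsis is a plastid protein without catalytic activity, and MTR_2g020240. It measured 81.3, 46.8 and 100.3 FPKM (3826, 2187 and 4611 fragments), so the tolerant grazed library was the low one of the 3. Its log2 ratio was −0.80 (−0.87 to −0.72) between the tolerant libraries and 1.10 (1.03 to 1.17) between the grazed ones. The second call was lost, at 0.86, after rescaling by the median ratio and, at 0.97, with totals that leave out the contigs of cluster CL4238, a cluster outside the legume-matched transcripts that took 7.76%, 11.5% and 3.27% of the fragments. Without this transcript the beta-amylase sum had a ratio of −0.09 between the tolerant libraries and −0.13 between the grazed ones.

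BAM7 and BAM8 of Arabidopsis are nuclear proteins that combine a beta-amylase domain with a DNA-binding domain and act in transcription. Their transcripts were scarce. The 4 transcripts matched to BAM8, all with MTR_5g026210 as the nucleotide match, summed to 12.8 in the tolerant ungrazed, 13.3 in the tolerant grazed and 16.8 in the intolerant grazed library, giving log2 ratios of 0.05 (−0.16 to 0.27) and 0.34 (0.14 to 0.54). Unigene24285_All, matched to BAM7, had 2.53, 3.58 and 5.57. Unigene20820_All, matched in Swiss-Prot to the plastid enzyme BAM2 but in soybean to the same BAM7-like gene, had 5.05, 7.80 and 8.45, with a ratio of 0.63 (0.32 to 0.94) between the tolerant libraries. None of these 6 passed the threshold in either comparison. All 22 beta-amylase members carried the KEGG number for beta-amylase, which 13 other legume-matched transcripts also carried under protein matches without the word amylase; these were not members.

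**Figure D3:**
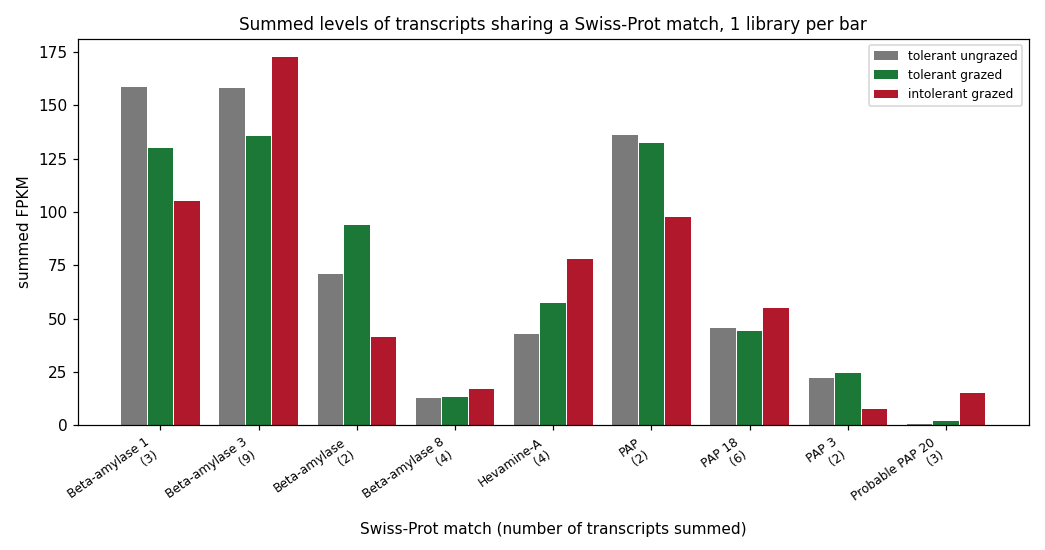
Summed FPKM (vertical axis, from 0) of transcripts that share a Swiss-Prot match, with 1 bar per library and the number of transcripts in parentheses. The bars of the BAM1 match step down from 159 to 130 to 105, whereas those of Hevamine-A step up from 42.6 to 57.3 to 78.1 and those of purple acid phosphatase 20 from 0.726 to 1.72 to 15.2.

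The 6 vegetative storage protein transcripts had a summed level that was higher in both grazed libraries than in the ungrazed one. All 6 had the high molecular weight root vegetative storage protein precursor of Medicago sativa as the best protein and nucleotide match. In Swiss-Prot and KEGG all 6 matched chitinases, 4 of them Hevamine-A, the chitinase and lysozyme of rubber latex, so the storage name and the enzyme name belong to the same sequences. Their summed FPKM was 44.3 in the tolerant ungrazed, 61.8 in the tolerant grazed and 93.5 in the intolerant grazed library. The log2 ratio of the sums was 0.48 (0.36 to 0.59) between the tolerant libraries and 0.60 (0.49 to 0.70) between the grazed ones, and the second became 0.36 after rescaling by the median ratio.

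The difference between the grazed libraries lay mainly in a single transcript of 1043 bases. Unigene35124_All measured 10.2, 16.8 and 46.3 FPKM (243, 398 and 1077 fragments). Its log2 ratio was 0.72 (0.49 to 0.96) between the tolerant libraries and 1.46 (1.29 to 1.63) between the grazed ones. It made up 23.02%, 27.3% and 49.5% of the group's sum, and without it the ratio of the sums between the grazed libraries was 0.07 in place of 0.60.

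CL4715.Contig2_All, of 278 bases, had 1.58, 2.86 and 13.6, from 10, 18 and 84 fragments, with a ratio of 2.25 (1.498 to 3.07) between the grazed libraries. The most abundant transcript of the group in the tolerant libraries did the reverse. CL4715.Contig1_All had 17.8, 24.2 and 14.2, from 544, 733 and 424 fragments, with ratios of 0.44 (0.28 to 0.60) and −0.77 (−0.94 to −0.59), and the second became −1.003 after rescaling by the median ratio. CL4715.Contig4_All had 7.03, 8.92 and 8.31, and CL4715.Contig3_All had 7.57, 7.36 and 9.30, with intervals between the grazed libraries of −0.37 to 0.16 and 0.08 to 0.60. The smallest, CL4715.Contig5_All, rested on 1, 10 and 11 fragments, and its ratio of 3.33 between the tolerant libraries had an interval of 0.52 to 8.77. Over its 5 contigs the cluster CL4715 summed to 34.1, 44.9 and 47.2, giving log2 ratios of 0.40 (0.26 to 0.53) and 0.07 (−0.07 to 0.22). All 6 storage protein transcripts share 1 best match. A change of level and a change of sequence therefore cannot be told apart for a single one of them.

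**Figure D4:**
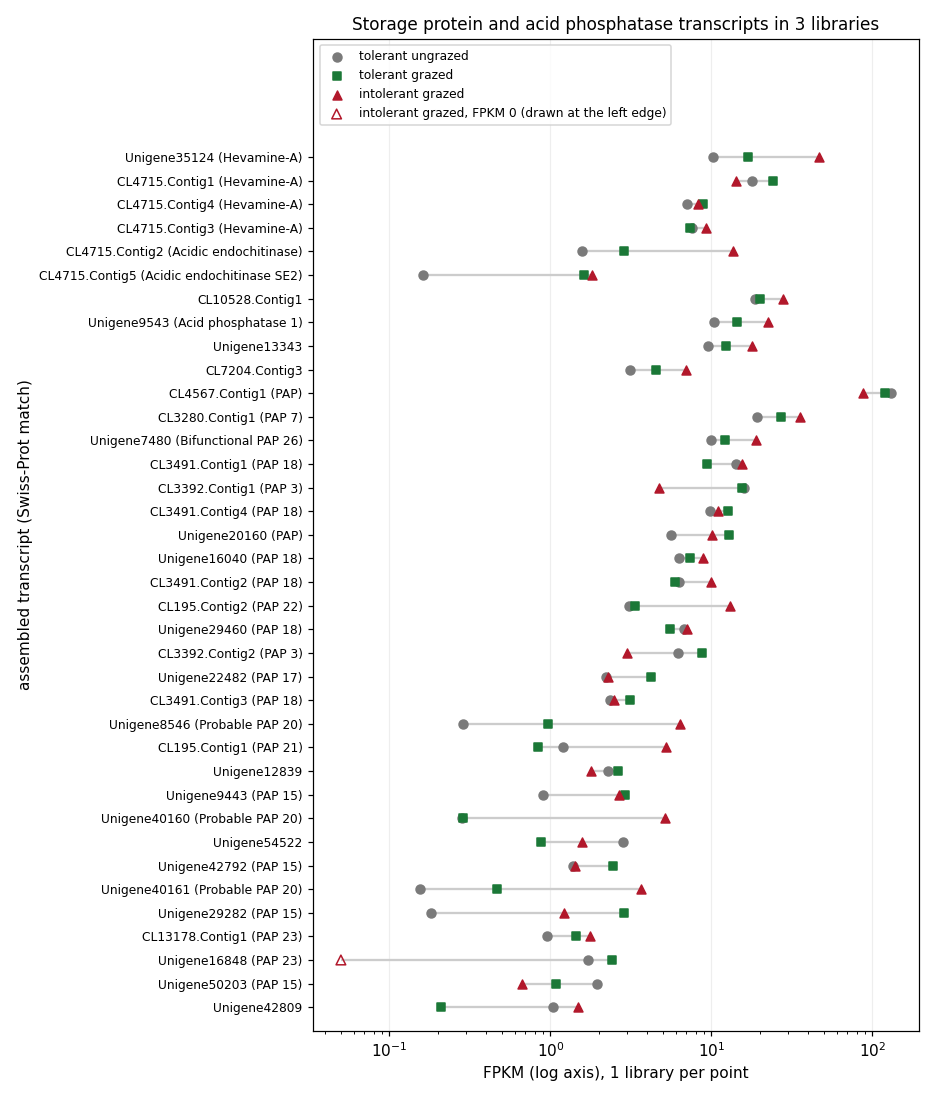
FPKM (horizontal, log axis) of the 6 storage protein, 4 other acid phosphatase and 27 purple acid phosphatase transcripts, from top to bottom and by mean level within each group, in the tolerant ungrazed (grey circle), tolerant grazed (green square) and intolerant grazed (red triangle) library. The open triangle marks Unigene16848, listed at 0 in the intolerant grazed library and drawn at the left edge, and the transcripts matched to purple acid phosphatases 20, 21 and 22 have their red triangle far to the right of both other points.

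The 27 purple acid phosphatase transcripts kept an even total, with summed FPKM of 254, 267 and 263 in the tolerant ungrazed, tolerant grazed and intolerant grazed library. The log2 ratios of these sums were 0.07 (0.02 to 0.13) and −0.02 (−0.08 to 0.03). Together with the other acid phosphatases the sums were 295, 318 and 338, and the direction of their ratio between the grazed libraries, 0.09 (0.04 to 0.13), turned with the scaling, to −0.15 after rescaling by the median ratio. Many of these transcripts were short, with a median length of 480 bases and 15 of 27 under 500 bases. Between the tolerant libraries 5 passed the threshold upward and 2 downward, and between the grazed libraries 6 upward and 4 downward. The shares, 18.5% and 7.41% and then 22.2% and 14.8%, were close to those of legume-matched transcripts, 15.7% and 8.78% and then 22.3% and 13.4%.

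A single transcript dominated the group. CL4567.Contig1_All, matched to the purple acid phosphatase gene PAP1 of Medicago truncatula, had the highest mean level of all 59 members. It measured 130.5, 119 and 87.6 FPKM (5076, 4611 and 3328 fragments), which was 51.5%, 44.8% and 33.3% of the group's sum. The log2 ratios were −0.13 (−0.19 to −0.07) and −0.45 (−0.51 to −0.38), within the threshold in both comparisons. Without it the sum over all acid phosphatases had a ratio of 0.27 between the tolerant libraries and 0.33 between the grazed ones. Unigene20160_All, a fragment of 382 bases with the same soybean Swiss-Prot match, had 5.62, 12.8 and 10.1 and passed the threshold between the tolerant libraries with 1.19 (0.69 to 1.71).

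The 5 purple acid phosphatases nearest to PAP20, PAP21 and PAP22 of Arabidopsis stood highest in the intolerant grazed library. That library held the highest level for 13 of the 27 purple acid phosphatases, these 5 included. The share of legume-matched transcripts highest there was not computed, so the 13 are not read as a trait of the group. The 5 were brought together with their levels already known, so their shared direction is no test of the group. All 5 matched chromosome 7 of Medicago truncatula, at MTR_7g104330, at MTR_7g104360 or within 1 genomic clone, mth2-71n23. CL195.Contig2_All, the longest at 1533 bases and matched to PAP22, measured 3.09, 3.34 and 13.02 FPKM (108, 116 and 445 fragments). CL195.Contig1_All, matched to PAP21, had 1.19, 0.840 and 5.24. The tolerant libraries lay close together for both contigs.

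The 3 transcripts matched to PAP20 had at most 10 uniquely aligned fragments in either tolerant library. Unigene40160_All had 4, 4 and 71 fragments and an FPKM of 0.283, 0.285 and 5.14 in the tolerant ungrazed, tolerant grazed and intolerant grazed library. Unigene8546_All had 3, 10 and 65 fragments and an FPKM of 0.288, 0.968 and 6.39. Unigene40161_All had 1, 3 and 23 fragments and an FPKM of 0.155, 0.468 and 3.65. In the order CL195.Contig2, CL195.Contig1, Unigene40160, Unigene8546 and Unigene40161 the log2 ratios between the grazed libraries were 1.96 (1.66 to 2.27), 2.64 (1.48 to 4.04), 4.17 (2.75 to 6.09), 2.72 (1.75 to 3.85) and 2.96 (1.23 to 5.34), and every interval lay beyond the threshold. Between the tolerant libraries all 5 intervals held 0, although Unigene8546_All and Unigene40161_All passed the fold threshold there with 1.75 (−0.21 to 4.25) and 1.60 (−2.04 to 7.31). The 5 transcripts, grouped after their values were seen, summed to 5.003, 5.90 and 33.4, and the part of the leaf marker difference given above was not tested here either. Transcripts with matches in 1 clone or neighbouring loci may be pieces of the same gene and are not independent of each other. As for CL7445, a change of level and a change of sequence between the populations cannot be told apart for these contigs.

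PAP3-type transcripts showed the reverse difference between the grazed libraries. CL3392.Contig1_All, matched to MTR_8g107620, measured 15.9, 15.5 and 4.72 FPKM (509, 493 and 148 fragments). CL3392.Contig2_All, of the same cluster, had 6.21, 8.74 and 2.99. Both were lower in the intolerant grazed library, giving log2 ratios of −1.71 (−1.99 to −1.45) and −1.55 (−2.17 to −0.96). Between the tolerant libraries their ratios were −0.03 (−0.22 to 0.15) and 0.49 (0.03 to 0.96), so the cluster as a whole, at 22.1, 24.2 and 7.71, had log2 ratios of 0.13 (−0.05 to 0.32) and −1.65 (−1.93 to −1.38). Unigene16848_All, matched to PAP23, had 15 and 21 fragments in the tolerant libraries and 0 in the intolerant grazed library. It was at least 6.89-fold lower there than in the tolerant grazed library, taken against a floor of 3 fragments in that library. The exact counting interval, which also carries the error of the tolerant library, reached up to a log2 ratio of −2.36. The other PAP23-type transcript, CL13178.Contig1_All, had 10, 15 and 18 fragments.

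PAP15 of Arabidopsis has phytase activity, and its 4 closest transcripts were thinly covered and highest together in the tolerant grazed library, with sums of 4.41, 9.30 and 5.95. Unigene29282_All, matched to MTR_3g083820, had 2 fragments in the tolerant ungrazed, 31 in the tolerant grazed and 13 in the intolerant grazed library. Its log2 ratios were 3.97 (1.99 to 7.07) and −1.23 (−2.29 to −0.25), and no other member passed the threshold upward in the first comparison and downward in the second. Unigene9443_All, matched to MTR_6g013050, had 9, 29 and 26 fragments, with ratios of 1.70 (0.58 to 2.96) and −0.13 (−0.96 to 0.68). The remaining PAP15-type fragments, Unigene42792_All and Unigene50203_All, had at most 14 fragments in a library, and all 4 of their intervals held 0. Unigene22482_All, matched to PAP17, an enzyme of phosphate starvation and senescence in Arabidopsis, had 16, 30 and 16 fragments, and neither ratio passed the threshold.

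Other well-covered purple acid phosphatases differed by less than the threshold. PAP26 is the main vacuolar and secreted purple acid phosphatase of Arabidopsis, and its match Unigene7480_All measured 10.01, 12.2 and 19.1 FPKM, with ratios of 0.28 (0.01 to 0.55) and 0.65 (0.42 to 0.88). CL3280.Contig1_All, matched to PAP7, had 19.2, 27.2 and 35.3, with ratios of 0.50 (0.34 to 0.66) and 0.38 (0.24 to 0.52). Both therefore stood in the same order over the libraries, lowest in the tolerant ungrazed and highest in the intolerant grazed one. The 6 transcripts matched to PAP18 summed to 45.7, 44.0 and 54.9, with ratios of −0.05 (−0.17 to 0.07) and 0.32 (0.20 to 0.44).

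Among the 6 matched to PAP18 the most abundant contigs of the matched loci differed in order. The remaining contigs did not all follow them. CL3491.Contig1_All, matched to MTR_5g092360, had 14.2, 9.42 and 15.5 and was lowest in the tolerant grazed library, with ratios of −0.60 (−0.79 to −0.40) and 0.72 (0.53 to 0.91). CL3491.Contig4_All, matched to MTR_3g051240, had 9.74, 12.6 and 11.04 and was highest there, with ratios of 0.37 (0.16 to 0.59) and −0.19 (−0.40 to 0.02). The other 4 transcripts matched to PAP18 lay between 2.36 and 9.90 FPKM, and none of their ratios passed the threshold. Unigene12839_All, without a Swiss-Prot name, had 13, 15 and 10 fragments and both of its intervals held 0. The 2 members lower past the threshold after grazing were fragments of 201 and 212 bases, Unigene54522_All with 13, 4 and 7 fragments and Unigene42809_All with 5, 1 and 7, and their intervals reached above 0. Unigene42809_All was also past the threshold upward between the grazed libraries, at 2.83, with an interval of −0.13 to 8.32.

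The 4 other acid phosphatases carry unlike names and stood in the same order, lowest in the tolerant ungrazed and highest in the intolerant grazed library. CL10528.Contig1_All, named after a thiamine-repressible acid phosphatase and matched by nucleotide to a multiple inositol polyphosphate phosphatase, measured 18.6, 20.1 and 27.8 FPKM. Unigene9543_All, nearest to acid phosphatase 1 in Swiss-Prot and of the family of the soybean storage proteins, had 10.4, 14.4 and 22.3. Unigene13343_All, of the vanadium haloperoxidase-like family, had 9.58, 12.3 and 17.9. Each of the 3 was above both tolerant libraries in the intolerant grazed one.

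CL7204.Contig3_All, named a histidine acid phosphatase and matched by nucleotide to an inositol pyrophosphate kinase, had 3.12, 4.55 and 6.91. The log2 ratios between the grazed libraries, in the order given, were 0.47 (0.34 to 0.59), 0.64 (0.44 to 0.84), 0.55 (0.33 to 0.76) and 0.60 (0.35 to 0.86), so all 4 intervals lay above 0 and above the median shift of 0.24. Between the tolerant libraries they were 0.11 (−0.02 to 0.25), 0.47 (0.23 to 0.71), 0.35 (0.10 to 0.61) and 0.54 (0.23 to 0.86). None passed the fold threshold, and their sum was 41.7, 51.3 and 74.95.

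Passing the threshold in both comparisons was seen for 6 members, of which 4 were higher in both, 1 was higher then lower and 1 lower then higher. The comparisons share the tolerant grazed library. The 4 higher in both were CL2527.Contig2_All, Unigene35301_All, Unigene8546_All and Unigene40161_All, all of them with at most 24 fragments in either tolerant library. Neither threshold was passed by 36 members. The shares of all and of legume-matched transcripts past the threshold in both comparisons or in neither were not computed. These counts are therefore not read as a result about the members.

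Other enzymes of starch and of nitrogen and phosphate handling were counted from lists of words in the protein match, members left out. Of 38 transcripts for starch breakdown, which included 3 alpha-amylase inhibitors caught by their name, 2 were higher (5.26%) and 7 lower (18.4%) in tolerant grazed against ungrazed plants, and 7 higher (18.4%) and 5 lower (13.2%) in intolerant against tolerant grazed plants. The shares of legume-matched transcripts, against which these and the counts of the lists below are to be read, were 15.7% higher and 8.78% lower in the first comparison and 22.3% and 13.4% in the second. The medians were 0.09 and 0.28, against 0.12 and 0.28 for legume-matched transcripts. With at least 20 fragments in 1 of the 2 libraries compared, 2 of 33 were higher and 5 lower in the first comparison. In the second 7 of 31 such transcripts were higher and 1 lower, so most of the lower calls there rested on thin coverage. Legume-matched transcripts with such coverage were 11.4% higher and 6.68% lower, and then 20% and 11%. The list summed to 238 FPKM in the tolerant grazed and 433 in the intolerant grazed library, and 129 of the latter came from 1 alpha-amylase, an enzyme that cuts inside glucan chains. Unigene37426_All had 7, 3 and 2001 fragments and an FPKM of 0.440, 0.190 and 129 in the tolerant ungrazed, tolerant grazed and intolerant grazed library. The other abundant alpha-amylase, Unigene12875_All, had 46.4, 55.5 and 48.2, so the library with the high value for the first did not stand out for the second. Of 28 transcripts for starch synthesis, 4 of the 27 tested were higher (14.8%) and 1 lower (3.70%) in the first comparison, the higher share near that of legume-matched transcripts, 15.7%. In the second 8 were higher (28.6%) and 1 lower (3.57%), against 22.3% and 13.4%. Most of the higher calls of this list rested on thinly covered transcripts. With at least 20 fragments in 1 of the 2 libraries compared, 1 of 19 was higher and 0 lower in the first comparison. In the second 3 of 21 were higher and 1 lower, with a median of 0.02, against 20% and 11% of legume-matched transcripts with such coverage.

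Some lipoxygenases serve as vegetative storage proteins in soybean leaves, beside their role in fatty acid oxidation. In the list for nitrogen storage and remobilisation, with 76 transcripts, 24 of the 73 tested were higher (32.9%) and 1 lower (1.37%) after grazing, and 14 were higher (18.4%) and 8 lower (10.53%) between the grazed libraries. All 24 were lipoxygenases, a word singled out after the values were seen. Of 54 lipoxygenase transcripts 24 (44.4%) were higher and 0 lower after grazing, where 15.7% of legume-matched transcripts were higher, and between the grazed libraries 8 were higher and 8 lower (14.8% each, against 22.3% and 13.4%). The most abundant, Unigene27820_All, measured 460, 883 and 618 FPKM. Asparagine synthetase, which makes the amide that carries nitrogen in legumes, had 0 of 8 transcripts higher and 1 lower (12.5%) in the first comparison and 3 higher (37.5%) and 0 lower in the second, against 15.7% and 8.78% and then 22.3% and 13.4% of legume-matched transcripts. Its most abundant transcript, Unigene25326_All, had 452, 309 and 822. Of 14 glutamine synthetase transcripts 11 were covered in the first comparison and 0 passed the threshold, while 3 of 14 (21.4%) were higher between the grazed libraries, near the 22.3% of legume-matched transcripts.

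Of 23 transcripts for phosphate starvation and uptake, a word list that also took in mitochondrial and glycerol-3-phosphate transporters, 3 were higher (13.04%) and 5 lower (21.7%) in the first comparison, against 15.7% and 8.78% of legume-matched transcripts. In the second 7 were higher (30.4%) and 3 lower (13.04%), against 22.3% and 13.4%. The most abundant, the inorganic phosphate transporter CL952.Contig3_All, measured 351, 214 and 275 FPKM. Unigene12365_All, of the same name, had 69.5, 50.3 and 17.3. Phosphate transporters were thus lower after grazing in these 2 transcripts, and they diverged between the grazed libraries.

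**Figure D5:**
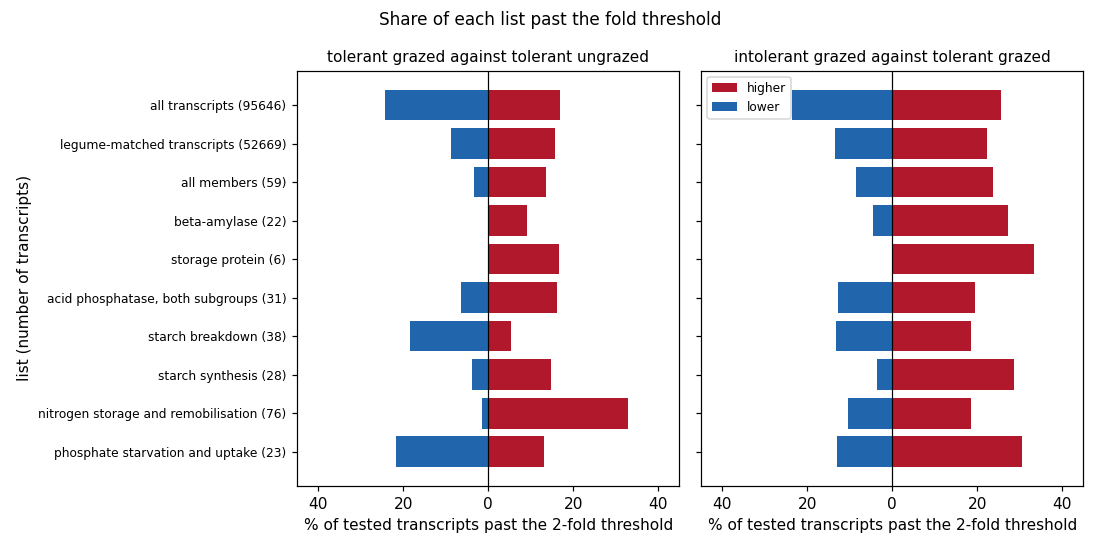
Percentage of tested transcripts past the fold threshold (horizontal axis; higher to the right in red, lower to the left in blue) for all transcripts, legume-matched transcripts, the members and the word lists, with the number of transcripts in parentheses. The members reach 13.6% higher and 3.39% lower on the left and 23.7% higher and 8.47% lower on the right.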

How the data were processed

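Per the deposited notes and the paper's methods, the authors built transcripts from the reads by de novo assembly (Trinity) and clustering (TGICL), counted the fragments uniquely aligned to each transcript with SOAP, and annotated transcripts by similarity search. Versions are not given in the sources used here. The authors deposited raw counts of fragments and FPKM values; FPKM recomputed from counts and lengths matched the deposited FPKM to within 5e-05. No per-sample column was left unused (0).

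Groups follow the labels. The log2 ratio of FPKM (0.01 in place of 0) was computed for all transcripts, with a threshold of 1 from the paper's methods. The paper's Poisson test on fragments compares 2 libraries and served only as an alternative, at an adjusted p of 0.001 by the Benjamini-Hochberg method. Intervals of single transcripts are exact Clopper-Pearson 95% intervals, and those of summed FPKM use the Poisson variance of the fragments on the log scale. Transcripts were named where their mean FPKM reached 10, together with those past the threshold with at least 20 fragments in 1 library and the 3 most abundant of each subgroup, 37 in number; others were named to complete a subgroup. The members and lists were chosen with earlier results of these data known. The computations were tested on simulated data. The scripts ran under numpy 2.4.6 and scipy 1.17.1, with pandas 2.3.3 for tables, matplotlib 3.10.9 for figures and Python 3.11.15. No sequence is printed because the files used here hold none, and no genome positions are given because the transcripts were assembled without a genome.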

Additional observations from a re-analysis of the deposited data

How the results depend on the processing

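The count of members past the threshold between the tolerant libraries, 10, was 5 with 1 added to every FPKM, 5 with a mean FPKM of at least 1, 4 with at least 20 fragments in 1 library, 3 with a threshold of 2, 2 with the Poisson test added and 1 where the whole interval had to lie beyond the threshold. That count was 11 with rescaling, 12 with TPM and 11 without cluster CL4238. It was 8 of 42 with FPKM summed per assembly cluster and 7 of 47 where the Swiss-Prot match also named the protein. Between the grazed libraries 19 became 10 with a threshold of 2. Under the other alternatives it lay between 21 and 13, the 13 being counted over 42 clusters or single transcripts. The share of higher members among those past the threshold there was 73.7%, against 61.9% after rescaling by the median ratio, with 13 higher and 8 lower. The summed levels moved with scaling. Rescaling, TPM, and totals without cluster CL4238 gave the beta-amylase sum log2 ratios of −0.27, −0.0734 and −0.12 between the tolerant libraries and −0.17, −0.0281 and −0.0624 between the grazed ones. They gave the acid phosphatase sum 0.0155, 0.22 and 0.17, and then −0.15, −0.00655 and −0.0409. The storage protein sum between the grazed libraries became 0.36 with rescaling and 0.47 without CL4238. Leaving out the most abundant member gave the beta-amylase sum −0.0861 and −0.13, the acid phosphatase sum 0.27 and 0.33, and the storage protein sum 0.0705 between the grazed libraries. The scalings differ from FPKM by 1 factor per library, and no other cause was tested. Of 25 ratios of named members past the threshold, 5 fell under it with 1 added to every FPKM, 1 with rescaling and 1 without CL4238, while 1 other ratio each came past it with TPM (CL7445.Contig2_All, 1.07), rescaling (CL4715.Contig1_All, −1.003) and without CL4238 (CL7445.Contig2_All, 1.02). The exclusion of lipid-acting phosphatases removed 0 members. No paired analysis was possible because each group has 1 library, and for the same reason no replicate could be left out. Depth limits the members under 20 fragments, whose intervals are wide.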
